A study of Mus musculus with 21 samples.

Results

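Gene expression 24 h after dexamethasone was set against expression 2 h after it in mouse 3T3-L1 adipocytes, on 6 of the 21 arrays of the study. The arrays are those whose labels give dexamethasone for 24 h (Dex 24 h, 3 arrays) or for 2 h (Dex 2 h, 3 arrays). The 3T3-L1 line is an established clonal mouse line of fibroblast-like preadipocytes that becomes fat-laden cells on hormonal induction. All cells of the study, controls included, had been kept under differentiation conditions for 14 days, per the labels. Dex 24 h cells and Dex 2 h cells had received 20 nM dexamethasone for 24 h and 2 h before RNA was taken. Cells treated for 6 d (Dex 6 d), untreated controls at 0 h, and cells given the cytokine TNF-alpha (TNF) for 24 h or 2 h serve here as reference points, with 3 arrays in each group. The labels call the replicates biological and do not say whether they came from separate cultures, so p-values measure the spread between these arrays, and neither the vehicle, the TNF dose nor the handling of medium is stated. The study profiled both agents over time as inducers of insulin resistance.

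Dexamethasone is a synthetic glucocorticoid that binds the glucocorticoid receptor, which then enters the nucleus and binds DNA directly or acts through other factors. Some target genes respond within minutes to hours and are then damped by feedback, while others depend on proteins made in the first hours and change later. In adipocytes glucocorticoids are known for effects on fat release, insulin action, inflammatory genes and matrix production. The 2 time points separate changes that were smaller at 24 h than at 2 h from those that were larger at 24 h. The only untreated arrays are at 0 h. In the Dex and control arrays, dexamethasone and hours in culture or handling therefore cannot be told apart.

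Values are log2 expression per gene from robust multi-array averaging (RMA), so a difference of 1 is a 2-fold change, and levels of different genes are not comparable. Differences are Dex 24 h minus Dex 2 h with their standard error (SE), from limma, a linear model with a spread pooled over genes, fitted to the 12 Dex and control arrays. A gene was called when its adjusted p (Benjamini and Hochberg, over all 11777 genes tested) was below 0.05. All group means rest on 3 arrays, the smallest two-sided p of an exact permutation test at this size is 0.1, and precision is limited by having so few arrays. Within both groups the arrays correlated at 0.996 to 0.999 over the brightest single-gene probe set of each gene. The adipocyte markers averaged 14.11 to 14.13 per array in Dex 24 h cells and 14.06 to 14.11 in Dex 2 h cells (5 of 7 listed markers measured, all bright), which fits the adipocyte label of both groups. Of the macrophage markers, 1 of 6 (Csf1r) lay above the detection mark of 5.34, which is the median of all values. The mean over the preadipocyte or fibroblast markers was 8.50 to 8.58 per array in Dex 24 h cells, against 8.72 to 8.96 in Dex 2 h cells. Of the 6 listed, 5 were on the array and 4 lay above the detection mark. Pdgfrb averaged 9.78 in Dex 24 h cells and 10.63 in Dex 2 h cells, Dlk1 9.82 and 10.31, and Thy1 7.37 and 7.92. Pdgfra went the other way, at 11.77 and 11.26. Cd34, under the mark, averaged 3.89 and 4.06. In bulk RNA, fewer cells of a type and less RNA per cell cannot be told apart.

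Between the times 2032 genes were called, 17.3% of those tested. Of these, 959 were higher at 24 h (8.14%) and 1073 lower (9.11%). At least 2-fold changes were less even, with 121 higher and 221 lower. Arrays of the 2 groups did not overlap in 4830 of the 11777 genes tested, so a lack of overlap alone says little. The median difference over all genes tested was 0.019, so the middle of the distribution was almost the same at both times. The counts given below for gene lists stand beside these shares of all genes, 17.3% called, 8.14% higher and 9.11% lower, and no list was tested as a set. A look back to the control arrays shows which side of the course a gene was on. Against control, 611 genes were higher (5.19%) and 410 lower (3.48%) after 2 h, and 1000 were higher (8.49%) and 1017 lower (8.64%) after 24 h. Centring each array on its median moved the higher share of the 24 h calls to 62.7%, against 49.6% as deposited.

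The called genes were sorted into 4 courses by these calls. A transient rise is a gene that was higher than control at 2 h and lower at 24 h than at 2 h, and there were 281. A building rise was higher at 24 h than at both earlier points without a fall at 2 h, and there were 509. The mirror images, transient falls and building falls, numbered 193 and 592, and the remaining 457 called genes met no definition. The sorting uses the same arrays as the comparison, so it describes the genes and tests nothing. Transient rises had a median level 0.85 above control at 2 h and 0.10 above it at 24 h. Of them 195 were not called against control at 24 h, 70 were still higher and 16 had dropped below. Of the 193 transient falls, 142 were not called against control at 24 h, 31 were still lower and 20 were higher. The name transient therefore does not mean that the change had gone by 24 h. Building rises had median differences from control of 0.03 at 2 h and 0.58 at 24 h, and 61 of the 509 had already been called at 2 h. Building falls were at medians of -0.03 and -0.69.

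**Figure D1:**
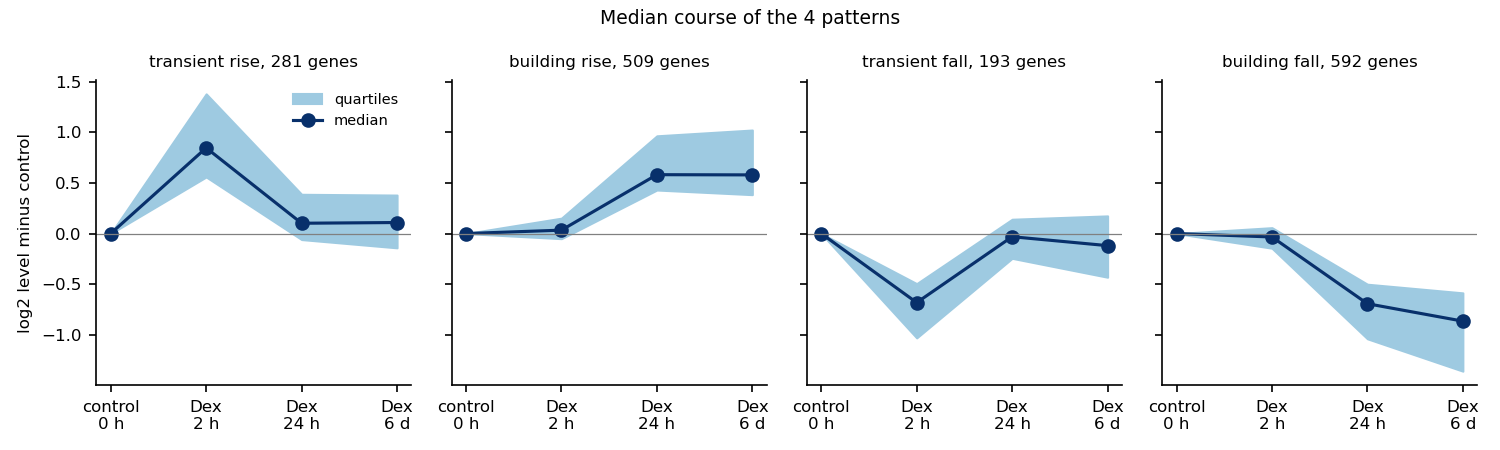
Median (line) and quartiles (band) of the log2 level minus the control mean at control 0 h, Dex 2 h, Dex 24 h and Dex 6 d, for the genes of each course. Transient rises peak at a median of 0.85 at 2 h and lie at 0.10 at 24 h, while building rises lie at 0.03 at 2 h and 0.58 at 24 h.

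The Dex 6 d and control arrays do not enter the difference between Dex 24 h and Dex 2 h, and show where the genes stood later. Against control, 1564 genes were higher (13.3%) and 1925 lower (16.3%) after 6 d, and array centring moved the higher share of these calls to 61.9%, against 44.8% as deposited. Of the 959 genes higher at 24 h than at 2 h, 530 (55.3%) were higher than control at 6 d and 68 (7.09%) lower. Of the 1073 genes lower at 24 h, 670 (62.4%) were lower than control at 6 d and 86 (8.01%) higher. Of the building rises 425 of 509 were called higher at 6 d and none lower, and of the building falls 543 of 592 were lower and 2 higher. The courses were sorted with the same control arrays that the 6 d difference uses, so part of this likeness is built in.

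The promoters of leading genes of both rising courses, transient and building, are shown as sequence context. Each is the 250 bases before the gene start in RefSeq (GRCm38.p6), read on the gene's strand. The 6-base core of the receptor's binding element, AGAACA or its complement TGTTCT, is in capitals. The first 3 are the transient rises with the largest differences that have an entry, Setdb2, Tiparp and Bdnf, and the last 3 are building rises chosen the same way, Lcn2, Cyp2e1 and Depp1.
Setdb2 (chr14:59440881-59441130, minus strand): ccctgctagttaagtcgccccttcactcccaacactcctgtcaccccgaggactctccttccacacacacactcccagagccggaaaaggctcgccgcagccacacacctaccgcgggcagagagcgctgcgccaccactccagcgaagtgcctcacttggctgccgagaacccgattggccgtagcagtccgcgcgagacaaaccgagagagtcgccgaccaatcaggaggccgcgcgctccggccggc
Tiparp (chr3:65528197-65528446, plus strand): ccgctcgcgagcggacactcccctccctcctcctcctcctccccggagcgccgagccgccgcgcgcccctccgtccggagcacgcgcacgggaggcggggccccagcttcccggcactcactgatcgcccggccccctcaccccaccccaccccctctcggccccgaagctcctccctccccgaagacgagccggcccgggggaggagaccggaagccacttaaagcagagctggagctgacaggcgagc
Bdnf (chr2:109674450-109674699, plus strand): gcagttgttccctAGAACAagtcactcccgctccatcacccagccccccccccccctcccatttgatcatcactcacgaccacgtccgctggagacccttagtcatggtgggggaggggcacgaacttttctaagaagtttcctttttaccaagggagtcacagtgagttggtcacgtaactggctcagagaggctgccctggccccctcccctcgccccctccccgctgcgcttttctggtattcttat
Lcn2 (chr2:32387740-32387989, minus strand): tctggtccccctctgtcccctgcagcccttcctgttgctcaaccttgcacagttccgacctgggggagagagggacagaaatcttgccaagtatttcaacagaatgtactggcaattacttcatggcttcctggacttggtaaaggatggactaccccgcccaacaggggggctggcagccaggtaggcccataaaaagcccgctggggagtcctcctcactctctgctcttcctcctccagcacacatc
Cyp2e1 (chr7:140763569-140763818, plus strand): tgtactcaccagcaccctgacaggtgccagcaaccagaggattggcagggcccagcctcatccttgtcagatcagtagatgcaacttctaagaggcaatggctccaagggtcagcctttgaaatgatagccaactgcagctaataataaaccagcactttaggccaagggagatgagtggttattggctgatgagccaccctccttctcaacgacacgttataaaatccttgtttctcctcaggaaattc
Depp1 (chr6:116650434-116650683, plus strand): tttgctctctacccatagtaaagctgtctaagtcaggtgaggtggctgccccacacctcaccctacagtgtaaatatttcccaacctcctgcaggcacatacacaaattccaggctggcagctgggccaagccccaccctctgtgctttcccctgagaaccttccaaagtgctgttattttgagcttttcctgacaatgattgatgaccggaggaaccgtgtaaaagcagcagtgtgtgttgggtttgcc

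Among these 6 windows that of Bdnf held a core site, with its first base at -237 from the start. RefSeq lists 7 Bdnf promoters, of which the first is shown. A window without a match says only that these letters are not in it. Core sites stood in 19 of 218 transient-rise promoters (8.72%) and 42 of 416 building-rise promoters (10.1%), against 10.6% of the 9519 tested genes with an entry and 16.2% of all 27025 promoters. The full 15-base element, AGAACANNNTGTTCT, stood in 1 of the 27025 promoters and in none of the tested genes. Base composition differed between the printed windows. Setdb2 and Tiparp held 24 and 28 CpG dinucleotides with 65.6% and 75.2% G plus C, and Bdnf held 9 with 58.0%. Lcn2, Cyp2e1 and Depp1 held 3, 2 and 2 with 48.8% to 56.4%. Over whole courses the median CpG count was 18 in 218 transient-rise promoters and 15 in 416 building-rise promoters. It was 16 in 156 transient-fall promoters and 12 in 447 building-fall promoters, against 16 over all tested genes. Among the at least 2-fold genes alone it was 18 in 58, 7 in 59, 18 in 29 and 6 in 96 promoters, in the same order. These are descriptions of sets chosen by the same arrays, with no test.

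The steepest transient rises were Setdb2, Tiparp and Bdnf. Setdb2, a member of the SET-domain histone methyltransferase family, measured 7.97, 7.80 and 7.93 in Dex 24 h cells, against 11.18, 11.13 and 10.69 in Dex 2 h cells. The groups lay far apart, and the control arrays (7.63, 7.84 and 7.99) stood with the 24 h arrays. The difference was -3.10 ± 0.13 (SE), an 8.57-fold lower level at 24 h (limma adjusted p = 5.4e-09). Tiparp, an ADP-ribosyltransferase induced through the aryl hydrocarbon receptor, measured 10.27, 10.41 and 10.37 in Dex 24 h cells, against 13.08, 13.17 and 13.13 in Dex 2 h cells. Every 24 h array was lower than every 2 h array, with a difference of -2.78 ± 0.10 (adjusted p = 1.7e-09). Bdnf, a neurotrophin, measured 6.62, 6.79 and 6.57 in Dex 24 h cells, against 9.54, 9.34 and 9.31 in Dex 2 h cells, a difference of -2.73 ± 0.15 (adjusted p = 6.0e-08). It had not quite returned, with 6.06, 6.52 and 5.92 on the control arrays and a called excess of 0.50 at 24 h. Phlda1, a pleckstrin-homology-like domain protein, fell by 2.29 and was not called against control at 24 h.

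Plod2 and Snai2 were above control at 2 h and below it at 24 h. Plod2, the lysyl hydroxylase that prepares collagen for cross-linking, measured 8.02, 8.0 and 8.10 in Dex 24 h cells, against 10.69, 10.42 and 10.68 in Dex 2 h cells. Its control arrays measured 9.02, 9.38 and 9.25, between the other groups. The difference between the times was -2.56 ± 0.14 (adjusted p = 5.9e-08), and that from control was 1.38 at 2 h, -1.18 at 24 h and -2.33 at 6 d, all called. Snai2, the repressor Slug of the epithelial-mesenchymal programme, measured 8.82, 8.82 and 8.63 in Dex 24 h cells, against 11.30, 11.05 and 11.24 in Dex 2 h cells, with 9.54, 9.70 and 9.54 in control cells. Its difference was -2.44 ± 0.13 (adjusted p = 4.3e-08), and its difference from control at 24 h was -0.84 ± 0.13 (adjusted p = 3.5e-04). The probe set of Snai2 can match more than 1 transcript.

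**Figure D2:**
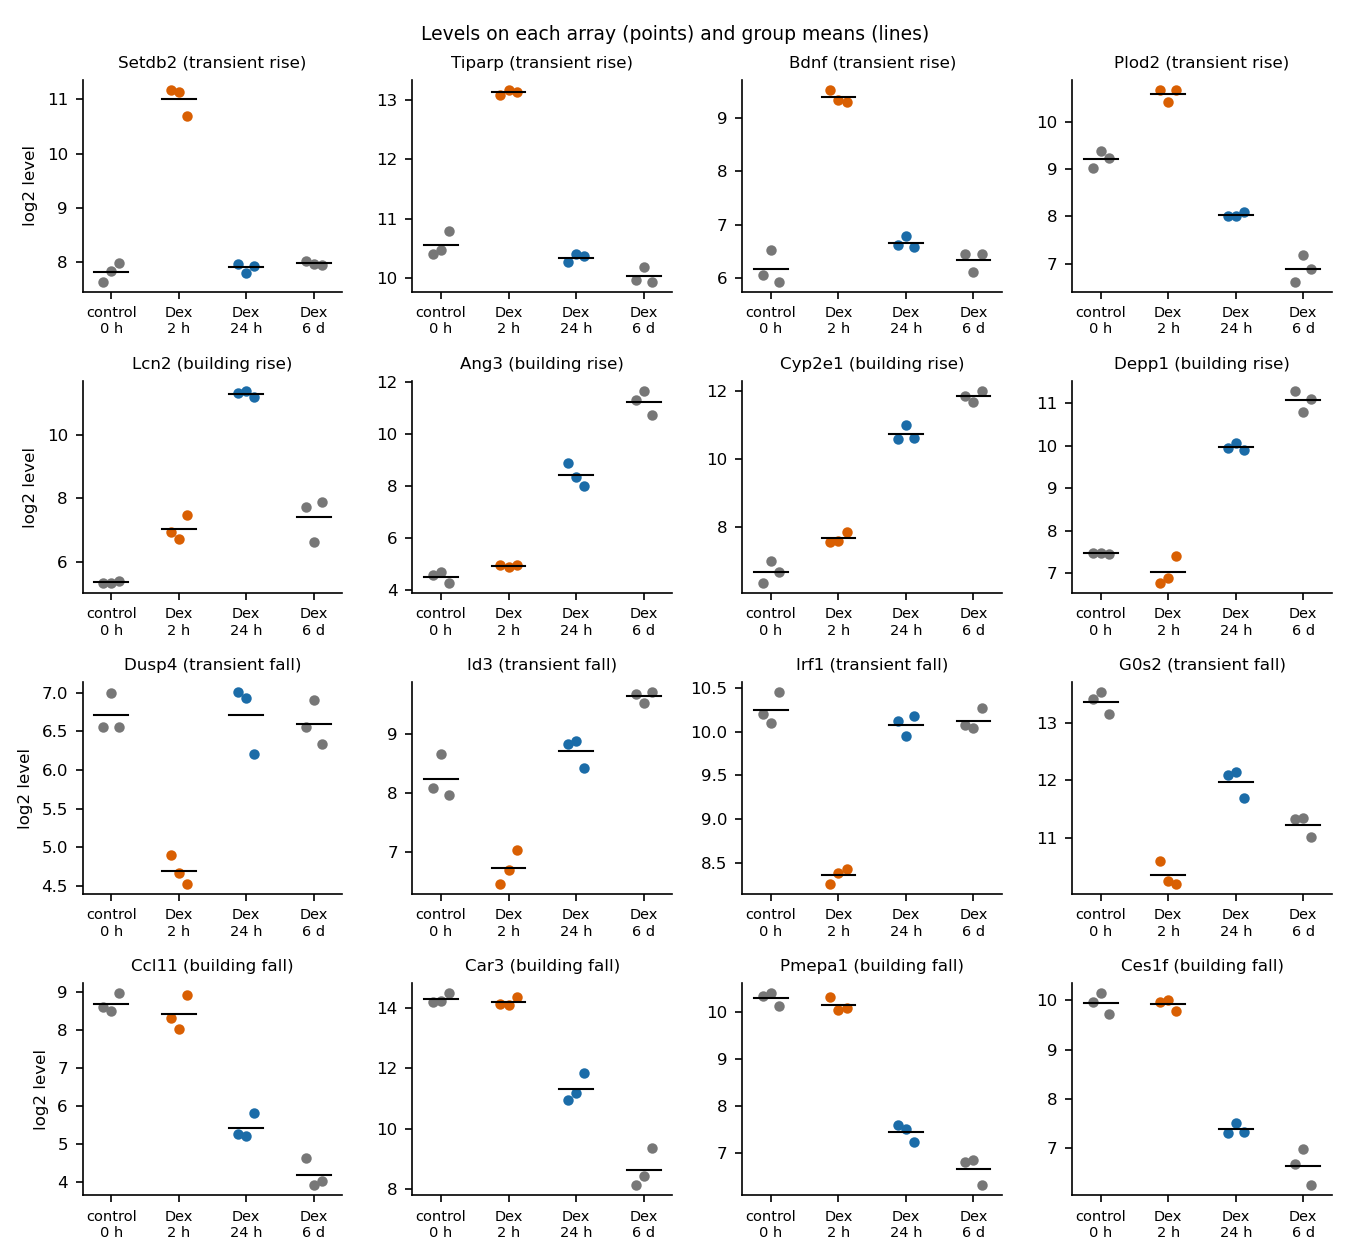
Log2 level (vertical axis) on each array (points) with the group mean (line) at control 0 h, Dex 2 h, Dex 24 h and Dex 6 d, with 4 genes of each course in a row. Setdb2 peaks at 10.69 to 11.18 at 2 h and is at 7.80 to 7.97 at 24 h, and Lcn2 lies at 11.17 to 11.38 at 24 h.

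Known targets of the glucocorticoid receptor did not share 1 course. Of the 33 listed, 32 were tested, with Gpx3 too dim, and 10 were lower and 8 higher at 24 h than at 2 h, while 14 were not called. That is 56.2% called, against 17.3% of all genes, and the list median was -0.08. Against control, 22 were higher at 2 h, 21 at 24 h and 20 at 6 d.

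Those that peaked at 2 h included feedback regulators and transcription factors. Errfi1, an inhibitor of the EGF receptor kinase, measured 11.40, 11.38 and 11.20 in Dex 24 h cells, against 13.50, 13.45 and 13.44 in Dex 2 h cells. The groups did not come near each other, with a difference of -2.13 ± 0.08 (adjusted p = 1.7e-09), yet the 24 h arrays were still 2.92 above control, whose arrays measured 8.32, 8.48 and 8.42. Dusp1, the phosphatase that switches off MAP kinases, measured 9.49, 9.43 and 9.68 in Dex 24 h cells, against 11.38, 11.20 and 11.33 in Dex 2 h cells, a difference of -1.77 ± 0.11 (adjusted p = 1.8e-07). Its excess over control was 2.64 at 2 h and 0.87 at 24 h, both called, and 0.30 at 6 d, not called. Cebpd, an early factor of adipogenesis, measured 11.13, 11.11 and 11.01 in Dex 24 h cells, against 12.56, 12.51 and 12.42 in Dex 2 h cells, a difference of -1.41 ± 0.08 (adjusted p = 6.9e-08). It kept 2.64 of its 4.05 excess over control. Nfil3, a clock-linked repressor, measured 8.13, 8.18 and 7.73 in Dex 24 h cells, against 10.01, 9.91 and 9.82 in Dex 2 h cells, and its 24 h level was not called against control (0.17, adjusted p = 0.51). The difference between the times was -1.90 ± 0.15 (adjusted p = 1.1e-06).

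Metabolic regulators in the list also came down. Ddit4, which restrains mTORC1, fell by 1.19 to a level not called against control (0.19), and at 6 d it lay below control (-0.91). Pdk4, which blocks pyruvate entry to the mitochondrial oxidation pathway, measured 8.42, 8.65 and 8.54 in Dex 24 h cells, against 9.75, 9.62 and 9.60 in Dex 2 h cells and stayed above control (1.23 at 24 h). Rgs2, which shortens G protein signals, fell by 1.05, and Nfkbia, the inhibitor of NF-kB, fell by 0.54. Tgm2, a protein cross-linking enzyme whose probe set can match several transcripts, fell by 1.57 and ended below control (-0.71). Hsd11b1, the enzyme that regenerates active glucocorticoid from its inert form, was a building fall. It measured 12.31, 12.27 and 12.06 in Dex 24 h cells, against 13.07, 12.98 and 12.85 in Dex 2 h cells, was not called at 2 h (0.10 from control) and was lower at 24 h (-0.65) and 6 d (-1.79).

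Another set was above control by 2 h and was not called between the times. Per1 (clock repressor) measured 9.20, 9.30 and 9.13 in Dex 24 h cells, against 9.43, 9.11 and 9.20 in Dex 2 h cells, with overlapping groups and a difference of -0.04 ± 0.11, against 7.49, 7.68 and 7.55 in control cells. Sgk1, a kinase of ion transport and cell survival, measured 11.61, 11.53 and 11.82 in Dex 24 h cells, against 11.57, 11.73 and 11.75 in Dex 2 h cells, a difference of -0.03 ± 0.10. The metallothioneins Mt1 and Mt2, which bind zinc, differed by -0.02 ± 0.05 and -0.28 ± 0.10. The Mt1 probe set lay near the highest values of the arrays, and over the mean of all its probe sets Mt1 was called lower at 24 h (-1.08, adjusted p = 3.66e-07). Tsc22d3 (Gilz), an anti-inflammatory leucine-zipper protein, differed by 0.19 ± 0.07, and only 1 of its 3 other probe sets had the same direction. Zbtb16 (PLZF) differed by 0.09 ± 0.17, Foxo1 by -0.12 ± 0.10, Foxo3 by -0.33 ± 0.11 and Zfp36, which destabilises cytokine mRNAs, by -0.44 ± 0.16. None of these 9 genes was called between the times, and all were called higher than control at 2 h, 24 h and 6 d. Their excess over control at 24 h ran from 0.85 for Foxo1 to 3.06 for Mt2. A missed call does not show that the times were equal: of 26 other settings, Foxo3 was called in 8, Mt2 in 6, Tsc22d3 in 4 and Zfp36 in 2. Nr3c1, the receptor itself, measured 10.47, 10.41 and 10.26 in Dex 24 h cells, against 10.40, 10.43 and 10.27 in Dex 2 h cells, below its control arrays (11.29, 11.31 and 11.46) at both times, and the difference between the times was 0.02 ± 0.09. Klf15, Arrdc2, Irs2 and Tat were not called between the times, nor against control at 2 h or 24 h. Replicates of Irs2 were wide, at 8.75, 8.66 and 7.99 in Dex 24 h cells and 9.18, 8.41 and 8.99 in Dex 2 h cells.

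A last set of targets was higher at 24 h than at 2 h. Fkbp5, the chaperone partner that lowers hormone binding by the receptor, measured 13.05, 13.03 and 13.10 in Dex 24 h cells, against 12.77, 12.68 and 12.75 in Dex 2 h cells. All 24 h arrays were above all 2 h arrays, by 0.33 ± 0.08 (adjusted p = 0.01), on top of an excess over control of 3.74 at 2 h. Without Dex 2 h replicate 2 it was 0.30 with an adjusted p of 0.0517. Glul, glutamine synthetase, measured 13.41, 13.51 and 13.47 in Dex 24 h cells, against 12.88, 12.99 and 12.78 in Dex 2 h cells, a difference of 0.58 ± 0.09 (adjusted p = 4.0e-04). Klf9 and Map3k6 rose by 0.64 and 0.51. Lpin1, a phosphatidate phosphatase of triglyceride synthesis, and Anxa1, an anti-inflammatory phospholipid-binding protein, rose by 0.32 and 0.31. Without Dex 2 h replicate 2, Lpin1 was 0.28 with an adjusted p of 0.105, and it also lost its call without Dex 2 h replicate 1 or any single Dex 24 h array. Averaged over their probe sets, Fkbp5, Lpin1 and Anxa1 were not called. Anxa1 was 0.25 with an adjusted p of 0.131 without Dex 2 h replicate 1, 0.32 with an adjusted p of 0.0719 without replicate 2 and 0.22 with an adjusted p of 0.117 without Dex 24 h replicate 3. Angptl4, an inhibitor of lipoprotein lipase, and Bcl6, a transcriptional repressor, were transient falls: Angptl4 measured 12.77, 12.68 and 12.94 in Dex 24 h cells, against 11.83, 11.84 and 11.48 in Dex 2 h cells, with 12.83, 12.72 and 12.66 in control cells.

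The steepest building rises included secreted proteins and enzymes. Lcn2, a secreted protein that binds iron-carrying siderophores, measured 11.32, 11.38 and 11.17 in Dex 24 h cells, against 6.94, 6.73 and 7.47 in Dex 2 h cells. No array of one group came near the other, and the difference of 4.24 ± 0.26 (18.9-fold, adjusted p = 1.2e-07) was the largest of any gene with non-overlapping groups. At 6 d it measured 7.72, 6.62 and 7.87. Ang3, of the angiogenin ribonucleases, measured 8.89, 8.38 and 8.02 in Dex 24 h cells, against 4.96, 4.92 and 4.96 in Dex 2 h cells. The 2 h arrays lie under the detection mark, so its difference of 3.48 ± 0.23 (adjusted p = 2.0e-07) may be understated. At 6 d it reached 11.34, 11.68 and 10.73. Cyp2e1, a cytochrome that oxidises small molecules, measured 10.61, 11.00 and 10.64 in Dex 24 h cells, against 7.58, 7.61 and 7.85 in Dex 2 h cells, a difference of 3.06 ± 0.16 (adjusted p = 3.8e-08). Apoc3, an apolipoprotein that inhibits lipoprotein lipase, measured 12.29, 12.47 and 11.62 in Dex 24 h cells, against 8.75, 8.56 and 8.83 in Dex 2 h cells, a difference of 3.41 ± 0.20.

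Depp1, known as a fasting-induced protein under FoxO control, measured 9.96, 10.07 and 9.90 in Dex 24 h cells, against 6.76, 6.89 and 7.39 in Dex 2 h cells, and its 2 h arrays were not above control (7.47, 7.48 and 7.45). The difference was 2.96 ± 0.15 (adjusted p = 3.8e-08). Cpm, a membrane carboxypeptidase, and Fam107a, an actin-associated stress protein, were already called above control at 2 h. Cpm measured 10.06, 10.27 and 9.27 in Dex 24 h cells, against 7.48, 6.93 and 6.42 in Dex 2 h cells, and 3.80, 4.09 and 3.82 in control cells, under the detection mark. Fam107a measured 12.20, 12.15 and 12.03 in Dex 24 h cells, against 9.86, 9.64 and 9.68 in Dex 2 h cells, a difference of 2.40 ± 0.17 (adjusted p = 3.6e-07), after 3.47 over control at 2 h. Aldh1a1 (retinoic acid synthesis), Ctla2a (a protease inhibitor), Adcyap1r1 (the receptor for PACAP) and the chemokine Ccl6 rose by 2.61, 2.54, 2.47 and 2.37. Ear3, an eosinophil-type ribonuclease, rose by 2.78. Ear3, Ang3 and Ctla2a have close relatives in the mouse genome, and the Ear3 probe set can match several of them, so the member that changed is uncertain.

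Transient falls took in regulators of growth signals, interferon and fat metabolism. Dusp4, a nuclear MAP kinase phosphatase, measured 7.01, 6.93 and 6.21 in Dex 24 h cells, against 4.90, 4.67 and 4.52 in Dex 2 h cells, with 6.56, 7.0 and 6.56 in control cells. The 2 h arrays were under the detection mark, so the difference of 2.02 ± 0.21 (adjusted p = 1.2e-05) may be understated. Id3, an inhibitor of helix-loop-helix factors, measured 8.84, 8.88 and 8.42 in Dex 24 h cells, against 6.45, 6.70 and 7.03 in Dex 2 h cells, a difference of 1.98 ± 0.19 (adjusted p = 5.7e-06), and at 6 d it was above control (1.42). Smad6, an inhibitor of BMP signalling, rose by 1.65 between the times and stayed -0.55 from control. Gadd45a, a stress-response protein, measured 9.79, 9.81 and 9.68 in Dex 24 h cells, against 8.24, 8.35 and 8.54 in Dex 2 h cells, with 11.04, 10.99 and 11.19 in control cells, so about as much of its drop remained at 24 h (-1.31 from control) as had been regained. Gadd45g of the same family took the opposite course, a transient rise that fell by 1.97 between the times.

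In the fat-release machinery the inhibitor and the lipase moved on different courses. G0s2, which inhibits adipose triglyceride lipase, measured 12.10, 12.14 and 11.69 in Dex 24 h cells, against 10.60, 10.24 and 10.19 in Dex 2 h cells. Control arrays measured 13.42, 13.54 and 13.15, so it dropped steeply by 2 h and regained 1.63 ± 0.15 (adjusted p = 3.1e-06) while staying below control (-1.39). At 6 d G0s2 was -2.14 from control. Pnpla2, the lipase itself, measured 12.48, 12.48 and 12.31 in Dex 24 h cells, against 11.38, 11.26 and 11.38 in Dex 2 h cells, with 11.26, 11.30 and 11.26 in control cells. It was a building rise of 1.09 ± 0.07 (adjusted p = 1.3e-07). Of 17 tested lipolysis and lipid droplet genes, 4 were higher and 3 lower (41.2% called). The other higher ones were Plin3 (0.44), a droplet coat protein, and Lipe (0.43), hormone-sensitive lipase. Lower were Hcar2, the antilipolytic receptor for hydroxybutyrate (-1.61 ± 0.20), Mgll, monoacylglycerol lipase (-1.12 ± 0.12, with 2 of its 3 other probe sets in the same direction), and Aqp7, the glycerol channel (-0.53). When single arrays of the fit were left out, a call was lost for Plin3 without Dex 24 h replicates 1 or 3 or Dex 2 h replicate 2 (0.36 to 0.42, adjusted p up to 0.103).

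The coactivators of mitochondrial genes dipped and came back. Ppargc1b measured 10.52, 10.57 and 10.17 in Dex 24 h cells, against 8.81, 8.25 and 8.96 in Dex 2 h cells, a difference of 1.75 ± 0.18 (adjusted p = 1.3e-05). Ppargc1a measured 9.71, 9.58 and 10.01 in Dex 24 h cells, against 8.44, 7.90 and 8.70 in Dex 2 h cells, a difference of 1.42 ± 0.19 (adjusted p = 1.4e-04), and 4 of its 4 other probe sets had the same direction. Both were below control at 2 h, and neither was called against it at 24 h. Among 18 tested fatty acid oxidation and thermogenesis genes 7 were higher and 4 lower (61.1% called). The others that rose were Esrra (0.48), Acadm (0.45), Ucp3 (0.43), Pdk2 (0.36) and Acot2 (0.34). Cox7a1, a respiratory chain subunit of muscle and brown fat, went the other way, at 9.64, 9.78 and 9.35 in Dex 24 h cells, against 11.49, 11.28 and 11.30 in Dex 2 h cells, a difference of -1.77 ± 0.18. Cpt1a, which admits fatty acids to mitochondria, fell by 0.57, and Cox8b by 0.42. Calls were lost for Acot2 without Dex 24 h replicates 2 or 3 or Dex 2 h replicate 3 (0.28 to 0.32, adjusted p up to 0.0796), Ucp3 without Dex 24 h replicate 1 (0.40, adjusted p 0.0609) and Pdk2 without any of 6 single arrays (0.33 to 0.39, adjusted p up to 0.131).

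Cebpa, which maintains the fat cell state, measured 10.24, 10.11 and 9.41 in Dex 24 h cells, against 8.97, 8.62 and 8.62 in Dex 2 h cells, with 10.12, 9.96 and 9.60 in control cells, and was a transient fall regaining 1.19 ± 0.19 (adjusted p = 5.3e-04). Of 20 tested adipogenic and identity genes, 2 were higher (Cebpa and the adipokine Retn, 0.58) and 6 lower (40% called). Car3, a carbonic anhydrase abundant in fat cells, carried the largest change, at 10.95, 11.17 and 11.84 in Dex 24 h cells, against 14.13, 14.10 and 14.37 in Dex 2 h cells. At 2 h it was not called against control (-0.10). The difference between the times was -2.88 ± 0.26 (adjusted p = 3.9e-06), and that from control at 6 d was -5.67. Adipoq, adiponectin, changed by -0.15 ± 0.04 (adjusted p = 0.018), a small step at a very high level of 14.72, 14.72 and 14.63 in Dex 24 h cells. Ebf2, Klf5 and Cebpb fell by 0.84, 0.65 and 0.51, and the 24 h mean of Ebf2 was below the detection mark. The call was lost for Adipoq without Dex 24 h replicate 3 or Dex 2 h replicates 1 or 2 (-0.14 to -0.12, adjusted p up to 0.0763).

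More extracellular matrix genes were lower than higher at 24 h. Of 44 tested, 17 were lower and 3 higher, 45.5% called in all, and the list median was -0.38. The mean over all 44 was 10.05, 10.08 and 10.27 on the Dex 24 h arrays, against 10.55, 10.53 and 10.80 on the Dex 2 h arrays. That of the control arrays was 10.53, 10.64 and 10.93, near that of the Dex 2 h arrays. Col8a1, a short-chain collagen of vessel walls, measured 6.14, 6.34 and 6.52 in Dex 24 h cells, against 8.31, 8.58 and 9.50 in Dex 2 h cells, a difference of -2.46 ± 0.35 (adjusted p = 1.8e-04). Replicate 3 of the Dex 24 h, Dex 2 h and control arrays was the highest of its group for Col8a1. Timp3, a metalloproteinase inhibitor, measured 5.46, 5.41 and 5.45 in Dex 24 h cells, against 7.43, 7.08 and 7.95 in Dex 2 h cells, a difference of -2.05 ± 0.19 (adjusted p = 3.7e-06). Its 24 h arrays were near the detection mark. Lum, the collagen-binding proteoglycan lumican, measured 9.40, 9.56 and 10.15 in Dex 24 h cells, against 11.24, 11.16 and 12.31 in Dex 2 h cells, a difference of -1.87 ± 0.36, and its difference from control at 6 d was -4.57.

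The main collagen chains had smaller differences. Col6a2 and Col6a1 differed by -1.07 ± 0.09 and -0.86 ± 0.11, Col1a1 by -0.88 ± 0.22, Col5a2 by -0.65 ± 0.10, Col3a1 by -0.44 ± 0.07 and Col1a2 by -0.40 ± 0.07. The collagen-processing enzymes P4ha1 (-1.08), P4ha2 (-0.57) and Plod1 (-0.66) and the collagen chaperone Serpinh1 (-0.58) were lower as well. Thbs1, Dcn and Timp1 fell by 1.83, 0.78 and 0.63. The 3 that rose were the cross-linking enzyme Lox (0.64 ± 0.21) and the basement membrane chains Col18a1 (0.46) and Col4a2 (0.36). The fibroblast markers Pdgfrb (a growth factor receptor, -0.84 ± 0.12), Acta2 (smooth muscle actin, -1.06 ± 0.18) and S100a4 (-0.43) fell too, while Pdgfra (0.51 ± 0.12), Zfp521 (0.78 ± 0.23) and Vim (0.22) rose. With the Dex 2 h replicate 1 array left out, 3 of the 12 tested fibroblast markers were called instead of 6. Over the mean of all its probe sets Pdgfra was not called. Calls were lost for S100a4 without Dex 24 h replicate 3 or Dex 2 h replicates 1 or 3 (-0.39, adjusted p up to 0.0775), Col1a1 without Dex 24 h replicates 1 or 2 or Dex 2 h replicate 3 (-0.81 to -0.79, adjusted p up to 0.0571), Pdgfra without Dex 2 h replicate 2 (0.42, adjusted p 0.0619), Dcn without any of 4 single arrays (-0.79 to -0.63, adjusted p up to 0.1), Vim without any of 4 single arrays (0.17 to 0.23, adjusted p up to 0.124), Zfp521 without any of 5 single arrays (0.71 to 0.81, adjusted p up to 0.107) and Lox without any of 8 single arrays (0.49 to 0.73, adjusted p up to 0.184). The part of any change in cell types in the matrix result was not tested.

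Several secreted signals were lower at 24 h. Ccl11, the eosinophil chemokine eotaxin, measured 5.26, 5.21 and 5.81 in Dex 24 h cells, against 8.32, 8.02 and 8.93 in Dex 2 h cells, a difference of -3.00 ± 0.24 (7.98-fold, adjusted p = 1.5e-06). The 24 h arrays were at or near the detection mark, and control arrays measured 8.61, 8.49 and 8.97. Of 17 tested chemokines and cytokines 5 were lower, the others being Cx3cl1 (-0.99 ± 0.12), Cxcl12 (-0.59), Il18 (-0.52) and Ccl8 (-0.63 ± 0.16), and 1 was higher, Clcf1 (0.87), 35.3% called in all. The call was lost for Ccl8 without Dex 24 h replicate 3 or Dex 2 h replicates 2 or 3 (-0.61 to -0.49, adjusted p up to 0.072). A further 13 of the 30 listed were too dim to test. Of growth factors and their partners, 10 of 25 tested were lower and 2 higher (48% called). Igf1 measured 9.74, 9.94 and 9.34 in Dex 24 h cells, against 11.55, 11.38 and 11.54 in Dex 2 h cells, a difference of -1.82 ± 0.16 (adjusted p = 2.4e-06). Inhbb, the activin B subunit, measured 6.37, 6.44 and 6.63 in Dex 24 h cells, against 8.09, 7.96 and 8.06 in Dex 2 h cells, and control arrays measured 9.87, 9.80 and 10.19, a stepwise fall that reached 4.67, 5.16 and 4.89 at 6 d. Fgf1 fell by 1.25, Tgfb2 by 1.09 and Hgf by 0.97. Fst, follistatin, which binds activins, was a transient rise that fell by 1.09. The carriers Igfbp6 and Igfbp3 rose by 0.78 and 0.69.

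Pmepa1, which dampens TGF-beta signalling, Sema3g, a semaphorin, and Ces1f, a carboxylesterase, were among the steepest building falls. Pmepa1 measured 7.59, 7.50 and 7.23 in Dex 24 h cells, against 10.32, 10.04 and 10.09 in Dex 2 h cells, a difference of -2.71 ± 0.15 (adjusted p = 5.9e-08). Ces1f measured 7.31, 7.51 and 7.32 in Dex 24 h cells, against 9.97, 10 and 9.79 in Dex 2 h cells, a difference of -2.54 ± 0.16, from a probe set that can match related carboxylesterases. Sema3g measured 6.42, 6.48 and 4.89 in Dex 24 h cells, against 8.88, 8.74 and 7.96 in Dex 2 h cells, a difference of -2.60 ± 0.37. Replicate 3 was the lowest in both groups and lay under the detection mark at 24 h. Disp2 fell by 2.49, but its 1 other probe set did not have the same direction.

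Of 21 tested genes of glycolysis and the hypoxia response, 13 were lower and 2 higher (71.4% called, against 17.3% of all genes), with a list median of -0.47. Car9, the tumour-type carbonic anhydrase that is a standard hypoxia marker, measured 4.48, 4.41 and 4.43 in Dex 24 h cells, against 6.73, 6.72 and 6.09 in Dex 2 h cells. The 24 h arrays were under the detection mark, so its difference of -2.07 ± 0.19 (adjusted p = 4.2e-06) may be understated. Pgk1, which makes ATP in glycolysis, measured 13.43, 13.44 and 13.19 in Dex 24 h cells, against 14.16, 14.12 and 13.99 in Dex 2 h cells, with tight replicates and a difference of -0.73 ± 0.07 (adjusted p = 3.9e-06). Slc2a1, the basal glucose transporter, measured 9.86, 10.06 and 9.62 in Dex 24 h cells, against 11.09, 11.10 and 10.28 in Dex 2 h cells, a difference of -0.98 ± 0.23 (adjusted p = 0.0094). Without Dex 2 h replicate 1 it was -0.85 with an adjusted p of 0.0526, and without replicate 2 it was -0.84 with an adjusted p of 0.0531.

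Replicates of these genes were uneven, and in the same way in several groups. Egln3, the oxygen sensor that marks hypoxia-inducible factors for destruction, measured 10.23, 10.44 and 8.43 in Dex 24 h cells, against 11.59, 11.49 and 10.81 in Dex 2 h cells, a difference of -1.60 ± 0.41 (adjusted p = 0.014). Dex 24 h replicate 3 stood apart, and without it the difference was -0.96 with an adjusted p of 0.0286. Without Dex 2 h replicate 1 Egln3 was -1.45 with an adjusted p of 0.0653, and without replicate 2 it was -1.5 with an adjusted p of 0.0589. Over the 21 genes the array means were 10.32, 10.40 and 9.98 in Dex 24 h cells, 10.88, 10.73 and 10.55 in Dex 2 h cells and 10.64, 10.90 and 10.56 in control cells, so replicate 3 was lowest in each group. The 24 h and 2 h means still did not overlap. The count of called members was 8 (7 lower) without Dex 2 h replicate 1 and 9 (8 lower) without Dex 2 h replicate 2.

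The remaining lower genes were glycolytic enzymes and regulators. Pfkl (-1.31 ± 0.26), Pkm (-0.65 ± 0.19), Pgam1 (-0.52 ± 0.11), Ldha (-0.47 ± 0.08), Hk1 (-0.42 ± 0.12) and Aldoa (-0.25 ± 0.06) are glycolytic enzymes, and Pdk1 (-1.04 ± 0.19), Pfkfb4 (-0.85 ± 0.11) and Bnip3 (-0.26 ± 0.07) are hypoxia-responsive regulators. Gapdh was -0.62 ± 0.24 and not called (adjusted p = 0.098). The 2 that rose were Hk2, the insulin-responsive hexokinase, at 11.65, 11.68 and 11.63 in Dex 24 h cells, against 11.08, 11.05 and 11.09 in Dex 2 h cells, and Adm, a vasodilator peptide (0.48 ± 0.14). Vegfa (0.41 ± 0.16) was not called. Calls were lost for Aldoa without Dex 24 h replicate 3 or Dex 2 h replicate 1 (-0.19, adjusted p up to 0.0801), Pkm without Dex 24 h replicate 3 or Dex 2 h replicates 1 or 2 (-0.69 to -0.45, adjusted p up to 0.14), Bnip3 without any of 4 single arrays (-0.26 to -0.21, adjusted p up to 0.124), Hk1 without any of 4 single arrays (-0.46 to -0.31, adjusted p up to 0.164) and Adm without any of 4 single arrays (0.41 to 0.47, adjusted p up to 0.117). At 6 d 15 of the 21 were lower than control and 2 higher.

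**Figure D3:**
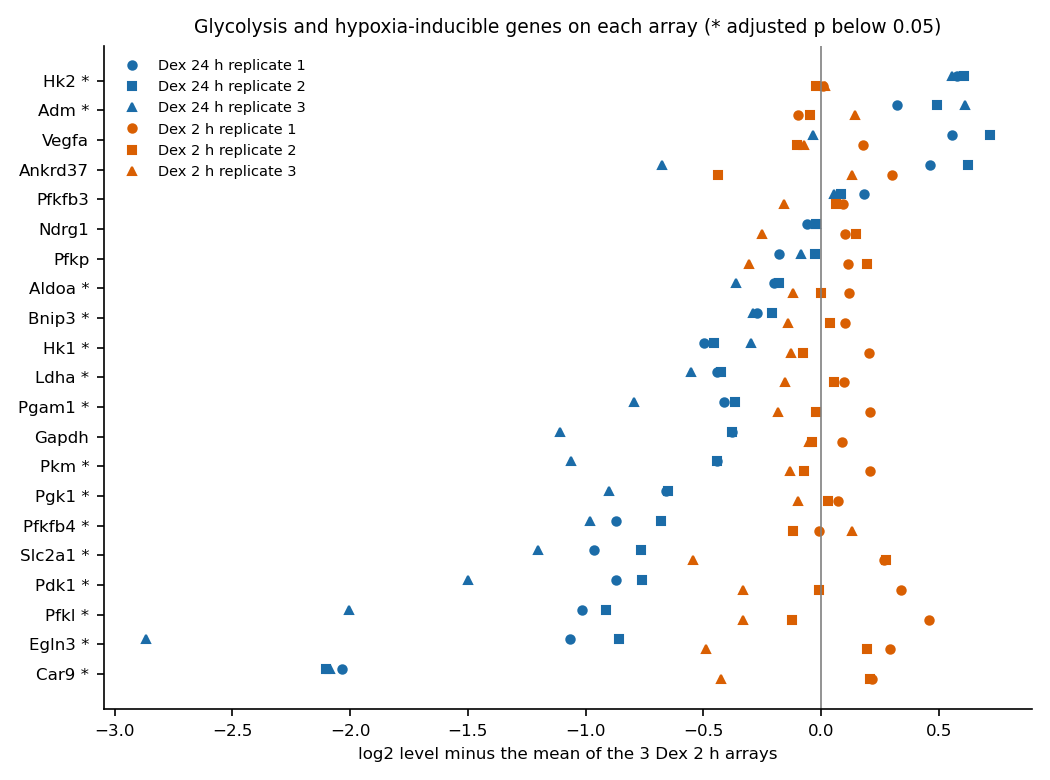
Log2 level minus the mean of the 3 Dex 2 h arrays for each tested gene of the glycolysis and hypoxia list, on every Dex 24 h (blue) and Dex 2 h (orange) array, with a marker shape for each replicate and a star for called genes. Car9 has a mean difference of -2.07 with 3 close Dex 24 h arrays, while for Egln3 and Pfkl Dex 24 h replicate 3 lies below the other arrays.

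The core motif bound by hypoxia-inducible factors, ACGTG or its complement CACGT, was searched in the same 250-base windows, a search chosen after these values were seen. It stood in 10 of 20 promoters of the list (50%) and in 7 of the 13 whose genes were lower (53.8%), against 21.9% of the 9519 tested genes and 16.6% of all promoters. The palindrome CACGTG matches both forms, and other factors bind it. Of the 13, Pfkl, Pdk1, Pfkfb4, Pkm, Hk1 and Aldoa had no match, and Pgam1, Ldha and Bnip3 had at least 1 but are not printed. The 4 promoters printed were picked among those with a match, which is in capitals. Car9 and Slc2a1 have 1 match each, with first bases at -18 and -36 from the start. Pgk1 has 2, at -150 and -131, and Egln3 has 1, at -229.
Car9 (chr4:43506776-43507025, plus strand): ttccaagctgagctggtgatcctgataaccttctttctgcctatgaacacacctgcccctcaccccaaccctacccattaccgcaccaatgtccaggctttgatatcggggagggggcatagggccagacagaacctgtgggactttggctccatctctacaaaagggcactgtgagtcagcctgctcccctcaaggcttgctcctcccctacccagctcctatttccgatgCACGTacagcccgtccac
Slc2a1 (chr4:119108495-119108744, plus strand): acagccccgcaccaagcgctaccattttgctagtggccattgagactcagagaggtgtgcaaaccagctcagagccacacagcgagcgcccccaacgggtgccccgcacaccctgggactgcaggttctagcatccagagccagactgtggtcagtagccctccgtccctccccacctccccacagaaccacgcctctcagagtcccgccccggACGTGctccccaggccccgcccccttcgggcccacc
Pgk1 (chrX:106186850-106187099, plus strand): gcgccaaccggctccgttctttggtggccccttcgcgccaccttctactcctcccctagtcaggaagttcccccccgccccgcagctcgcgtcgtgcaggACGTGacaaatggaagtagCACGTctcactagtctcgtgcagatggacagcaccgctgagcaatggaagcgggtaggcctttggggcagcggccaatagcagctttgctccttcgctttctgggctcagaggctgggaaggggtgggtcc
Egln3 (chr12:54203875-54204124, minus strand): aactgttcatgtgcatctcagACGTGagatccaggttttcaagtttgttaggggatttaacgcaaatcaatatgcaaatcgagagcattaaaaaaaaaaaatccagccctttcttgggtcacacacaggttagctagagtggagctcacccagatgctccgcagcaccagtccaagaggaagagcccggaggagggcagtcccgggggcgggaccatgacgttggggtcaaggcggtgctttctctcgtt
A match describes the sequence and does not show binding.

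Interferon-response genes were lower at 24 h in 14 of 27 tested and higher in 2 (59.3% called, list median -0.57). The mean over all 27 was 6.76, 7.02 and 6.95 on the Dex 24 h arrays, against 7.38, 7.73 and 7.29 on the Dex 2 h arrays. Iigp1, an interferon-induced GTPase, measured 6.86, 6.89 and 6.82 in Dex 24 h cells, against 8.79, 9.09 and 8.86 in Dex 2 h cells, a difference of -2.06 ± 0.18 (adjusted p = 2.2e-06). It had been above control at 2 h (0.96) and was below it at 24 h (-1.10). Ifit3, an antiviral RNA-response protein, measured 6.73, 7.22 and 7.40 in Dex 24 h cells, against 8.28, 8.93 and 8.41 in Dex 2 h cells, a difference of -1.42 ± 0.24, continuing a fall seen at 2 h (-0.96 from control). Ifit1 and Oasl2 fell by 1.42 and 1.37 to means under the detection mark. Xaf1 (-1.30), Gbp3 (-1.15), Usp18 (-1.03), Gbp2 (-0.97), Ifi47 (-0.96), Rtp4 (-0.93), Bst2 (-0.93), Igtp (-0.50) and the immunoproteasome subunits Psmb8 (-0.82) and Psmb9 (-0.59) were also lower. The regulator Irf1 took the opposite course. It measured 10.12, 9.95 and 10.18 in Dex 24 h cells, against 8.25, 8.38 and 8.43 in Dex 2 h cells, with 10.21, 10.10 and 10.46 in control cells, a transient fall that regained 1.73 ± 0.11 (adjusted p = 1.7e-07). Irf7 was the other gene that rose (0.47 ± 0.15). Calls were lost for Igtp without Dex 24 h replicate 1 or Dex 2 h replicate 2 (-0.44 to -0.41, adjusted p up to 0.0544), Psmb9 without Dex 24 h replicate 3 or Dex 2 h replicate 1 (-0.54 to -0.48, adjusted p up to 0.0524), Rtp4 without Dex 24 h replicates 1 or 3 or Dex 2 h replicate 2 (-0.94 to -0.67, adjusted p up to 0.165) and Irf7 without any of 7 single arrays (0.35 to 0.49, adjusted p up to 0.169).

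Of 20 tested cholesterol synthesis genes 9 were lower and none higher (45% called, list median -0.40). Hsd17b7, a sterol-pathway reductase, measured 10.03, 9.97 and 10.15 in Dex 24 h cells, against 11.16, 11.16 and 10.92 in Dex 2 h cells, a difference of -1.03 ± 0.16 (adjusted p = 4.5e-04), and Tm7sf2, a sterol reductase, measured 10.32, 10.37 and 10.34 in Dex 24 h cells, against 11.43, 11.43 and 10.97 in Dex 2 h cells, a difference of -0.93 ± 0.18 (adjusted p = 0.0018). For Tm7sf2 the 24 h values lay within 0.05 of each other and below all 2 h values. Dhcr7, Pmvk, Fdft1, Nsdhl, Hmgcs1, Mvk and Msmo1 fell by 0.34 to 0.71. At 6 d all 20 were called lower than control, with a difference of -3.17 ± 0.18 for Tm7sf2. Of 23 tested fatty acid and triglyceride synthesis genes 7 were higher and 6 lower (56.5% called). The elongase Elovl6 (-1.13 ± 0.18), the desaturases Fads2 (-0.82 ± 0.11) and Fads1 (-0.47), Me1 (-0.45), Lpin2 (-0.83) and Mogat1 (-0.52) fell. The acyltransferases Dgat2 (0.75 ± 0.09) and Gpam (0.47 ± 0.07), Lpin3 (0.81), Lpin1 (0.32), Acacb (0.40), Srebf1 (0.29) and Thrsp (0.27) rose. Lipins and acyltransferases of triglyceride assembly thus stood on both sides. In these lipid lists calls were lost for Mvk without Dex 24 h replicate 2 or Dex 2 h replicates 1 or 2 (-0.32 to -0.29, adjusted p up to 0.0878), Mogat1 without Dex 24 h replicates 2 or 3 or Dex 2 h replicate 2 (-0.49 to -0.44, adjusted p up to 0.0754), Hmgcs1 without any of 4 single arrays (-0.40 to -0.37, adjusted p up to 0.0687), Msmo1 without any of 6 single arrays (-0.36 to -0.26, adjusted p up to 0.164), Srebf1 without any of 7 single arrays (0.21 to 0.34, adjusted p up to 0.166) and Acacb without any of 8 single arrays (0.33 to 0.46, adjusted p up to 0.171).

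**Figure D4:**
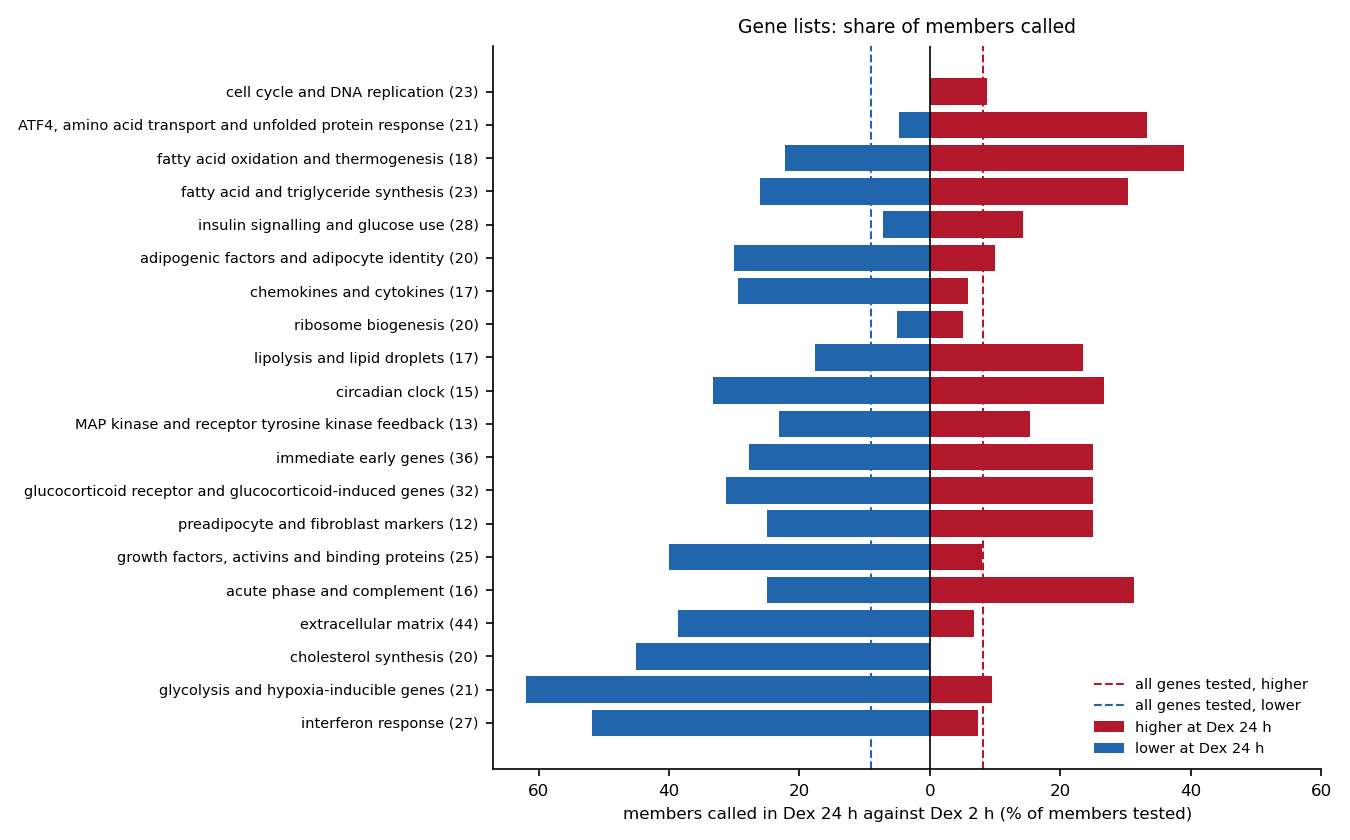
Share of tested members called higher (red, to the right) or lower (blue, to the left) in Dex 24 h against Dex 2 h, for each list with its number tested in brackets, ordered by median difference. Dashed lines mark all genes tested, 8.14% higher and 9.11% lower. Glycolysis, interferon, cholesterol, growth factor and matrix genes reach far to the left.

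Of 16 tested acute phase genes, 5 were higher and 4 lower (56.2% called). Lbp, which presents bacterial lipopolysaccharide, measured 8.78, 8.82 and 9.09 in Dex 24 h cells, against 7.15, 7.19 and 7.54 in Dex 2 h cells, a difference of 1.60 ± 0.20, and Cp, the copper carrier ceruloplasmin, measured 12.55, 12.57 and 12.71 in Dex 24 h cells, against 11.49, 11.30 and 11.55 in Dex 2 h cells, a difference of 1.16 ± 0.08. At 6 d Lbp was not called against control (0.16), while Cp was 1.83 above it. Hp, haptoglobin, rose by 0.82 ± 0.07 at a very high level and Saa3 by 0.84 ± 0.24. Orm3, Ptx3, Steap4 and Serpina3n fell by 1.19, 1.16, 1.04 and 0.84, and Orm3 has close relatives that its probes may not tell apart. Orm3 was still 2.53 above control at 24 h. The call was lost for Saa3 without Dex 24 h replicate 3 or Dex 2 h replicate 1 (0.60 to 0.65, adjusted p up to 0.138).

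Amino acid supply and stress genes rose in 7 of 21 tested, with 1 lower, Herpud1 (-0.51), 38.1% called in all. Slc1a5, a glutamine transporter, measured 12.13, 12.15 and 11.56 in Dex 24 h cells, against 10.58, 10.36 and 10.39 in Dex 2 h cells. Slc7a5, a leucine transporter, measured 9.24, 9.24 and 8.95 in Dex 24 h cells, against 7.71, 7.79 and 7.57 in Dex 2 h cells. Both were building rises with no overlap between the groups, of 1.5 ± 0.16 and 1.46 ± 0.11 (adjusted p = 1.3e-05 and 9.3e-07). Trib3, an inhibitor of Akt induced by amino acid stress, rose by 1.14 ± 0.23, Xbp1 by 0.61, Dnajb9 by 0.55, Ddit3 by 0.52 and Asns, asparagine synthetase, by 0.47. In insulin signalling 4 of 28 were higher and 2 lower, a share of 21.4%, near the background of 17.3%. Irs1, the main docking protein of the insulin receptor, measured 11.93, 11.95 and 11.71 in Dex 24 h cells, against 10.99, 10.94 and 11.10 in Dex 2 h cells, with 12.66, 12.73 and 12.85 in control cells, so it regained 0.85 ± 0.11 (adjusted p = 9.4e-05) and stayed -0.88 from control. Socs3, an inhibitor of cytokine and insulin signals, rose by 0.77 ± 0.18, and without Dex 24 h replicate 2 it was 0.67 with an adjusted p of 0.0511. Gys2 fell by 0.43. Calls were lost for Ddit3 without Dex 24 h replicates 1 or 2 or Dex 2 h replicate 3 (0.40 to 0.49, adjusted p up to 0.101), Herpud1 without any of 4 single arrays (-0.51 to -0.45, adjusted p up to 0.0784) and Gys2 without any of 6 single arrays (-0.46 to -0.36, adjusted p up to 0.159).

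Among 36 tested immediate early genes 10 were lower and 9 higher (52.8% called). Rhob, a small GTPase, measured 11.08, 11.04 and 11.00 in Dex 24 h cells, against 12.61, 12.47 and 12.58 in Dex 2 h cells, and Ccn1, a matrix signalling protein, measured 8.67, 8.74 and 8.4 in Dex 24 h cells, against 10.10, 9.89 and 9.91 in Dex 2 h cells, differences of -1.51 ± 0.10 and -1.36 ± 0.12. Sik1, Id2, Fos, Egr2, Ier3, Mafk and Klf4 fell by 0.55 to 1.17. Zfp36l2, an mRNA decay factor, measured 11.40, 11.24 and 11.49 in Dex 24 h cells, against 9.93, 10.21 and 10.03 in Dex 2 h cells, a difference of 1.32 ± 0.13 (adjusted p = 7.1e-06). Klf6, Ier5 and Klf10 rose by 0.98, 0.84 and 0.71, and Gadd45b, Id1 and Fosl2 by 0.41 to 0.60. Calls were lost for Klf6 without Dex 2 h replicate 2 (0.83, adjusted p 0.0506), Mafk without Dex 24 h replicates 1 or 2 or Dex 2 h replicate 1 (-0.54 to -0.47, adjusted p up to 0.0835), Gadd45b without any of 6 single arrays (0.40 to 0.67, adjusted p up to 0.171), Fosl2 without any of 7 single arrays (0.32 to 0.45, adjusted p up to 0.2) and Id1 without any of 9 single arrays (0.33 to 0.45, adjusted p up to 0.19). Of 13 MAP kinase feedback genes, Dusp4 and Dusp10 (1.14 ± 0.10) were higher and Errfi1, Dusp1 and Dusp16 (-0.60) lower (38.5% called).

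Clock genes did not move as a block: 5 of 15 tested were lower and 4 higher (60% called). Cry1, Ciart, Per3 and Per2 fell by 1.07, 1.03, 0.80 and 0.75, beside Nfil3. Bhlhe40 (1.09 ± 0.16), Nr1d1 (1.06 ± 0.12), Dbp (0.94 ± 0.11) and Nr1d2 (0.34 ± 0.09) rose, and the call was lost for Nr1d2 without Dex 24 h replicates 1 or 2 or Dex 2 h replicate 1 (0.28 to 0.33, adjusted p up to 0.106). Cry1 measured 5.47, 5.61 and 5.79 in Dex 24 h cells, against 6.73, 6.76 and 6.60 in Dex 2 h cells, and Dbp measured 11.15, 11.12 and 10.95 in Dex 24 h cells, against 10.25, 10.11 and 10.03 in Dex 2 h cells, with no overlap in either. Treatment began 24 h or 2 h before harvest, per the labels, and clock time at harvest is not stated. Cdkn1b (0.73 ± 0.12), the cell cycle inhibitor p27, and Ccnd3 (0.43 ± 0.09) rose among 23 tested cell cycle genes with none lower, a share of 8.7% that is below the 17.3% of all genes. Over the mean of all its probe sets Ccnd3 was not called, and without the Dex 6 d replicate 2 array, which had the highest 3' minus 5' signal difference of the Dex course, 7 cell cycle genes were higher. Of 20 ribosome biogenesis genes, Rrs1 rose (0.43 ± 0.13, adjusted p = 0.039) and Nip7 fell (-0.39 ± 0.10), 10% called and likewise below the share of all genes. The 1 other probe set of Nip7 did not have the same direction, and over the mean of both Nip7 was at -0.09 and not called. Neither call held when Dex 2 h replicate 1 or Dex 24 h replicate 3 was left out: Rrs1 was 0.45 with an adjusted p of 0.0846 and 0.46 with an adjusted p of 0.0669, and Nip7 was -0.37 with an adjusted p of 0.0502 and -0.32 with an adjusted p of 0.054.

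The TNF arrays show whether the same hours under another agent gave the same differences. TNF is an inflammatory cytokine that acts through NF-kB and MAP kinases. The time difference (24 h minus 2 h) differed between Dex and TNF in 1993 of 11807 genes (16.9%), tested as an interaction in a fit of the 12 arrays of both agents at both times, and array centring moved the positive share of these calls to 55.4%, against 44.5% as deposited. Under TNF itself the 281 transient rises of Dex had a median time difference of 0.01, with 45 called higher and 48 lower. Of all 11653 genes tested in both fits, 1206 were called higher and 1087 lower under TNF. Both are smaller shares than among the transient rises, so the small median does not mean that these genes stayed unchanged. The interaction was called in 172 of 281 transient rises and 255 of 505 building rises tested in both fits. For transient falls it was 91 of 192 and for building falls 318 of 592, against 1933 of all 11653 genes. The courses were sorted on Dex arrays that the interaction also uses. Lcn2 was alike under both agents in direction: TNF 24 h cells averaged 10.69 ± 0.95 and TNF 2 h cells 7.49 ± 0.38 (SD, n = 3 each), and the interaction of 1.04 ± 0.50 (SE) was not called (adjusted p = 0.184). Further genes described above had like time differences under both agents. G0s2 differed by 1.63 under Dex and 1.61 under TNF, Hcar2 by -1.61 and -1.63, and Rhob by -1.51 and -1.58. Cp differed by 1.16 and 1.46, and Lum by -1.87 and -1.46. None of these interactions was called, which does not show that the agents were equal.

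**Figure D5:**
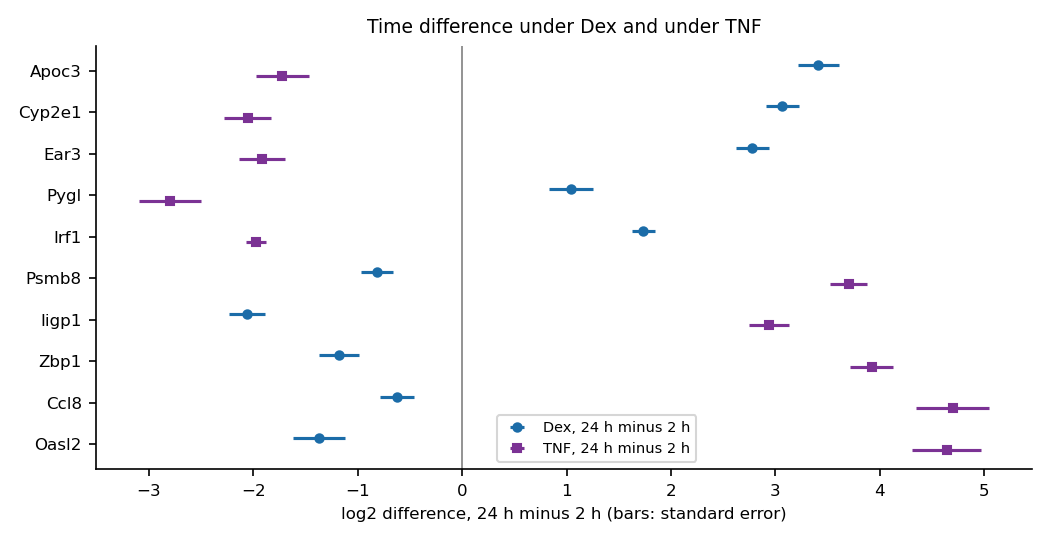
Time difference (24 h minus 2 h, log2, with SE) under Dex (circles) and TNF (squares) for the 5 genes with the most positive and the 5 with the most negative interaction among genes called in both tests. Every gene shown has opposite signs under the 2 agents, such as Apoc3 at 3.41 under Dex and -1.72 under TNF. Choosing the most extreme interactions favours such genes. Cyp2e1, Ear3, Pygl, Oasl2 and Zbp1 have a 24 h mean under the detection mark under 1 of the agents.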

How the data were processed

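Affymetrix mouse arrays of 21 samples (7 groups of 3) were used. The deposited values are log2 expression made by the authors with RMA, per the submitters' processing notes; the version is not given in the sources used here. They range from 2.70 to 15.06 over 45101 probe sets and were used as deposited. Of the probe sets 34958 list 1 gene, 932 several and 9211 none, and 34754 symbols were updated by Entrez identifier through RefSeq. Each gene took its brightest single-gene probe set (18194 genes), and was tested where at least 3 arrays of the fit exceeded 5.34, the median of all values, which left out 6417 dim genes.

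limma 3.58.1 in R 4.3.3 (with data.table, version 1.17.8) fitted 1 mean per group with a moderated spread and a trend, 8 residual degrees of freedom, to the 12 Dex and control arrays. The interaction used a second fit of 12 arrays. TNF arrays were kept out of the first fit because TNF 6 d replicate 2 stood apart in earlier results. Tests were two-sided. Figures used Python 3.11.15.

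The comparison, its courses and the 21 gene lists were chosen with earlier results of these data known; the arrays of each group follow from the labels. Named genes are the 12 highest and 12 lowest called genes whose groups do not overlap, up to 4 called members per list, up to 6 per course, all glucocorticoid-list genes, and the 5 highest and 5 lowest interaction genes. Further list members are given by value. Pgk1, Slc2a1, Car9 and Egln3 promoters, and the list members beyond that rule, were chosen after their values were seen. Motifs were searched on both strands of RefSeq promoters. Other settings tried were 14, beside leaving out each array: no or a stricter filter (6.10), the mean over probe sets, array centring, cyclic loess, no trend, robust moderation, all 21 or 20 arrays, only the groups compared, a replicate block with all groups or only those compared, array weights and a 2-fold limit. No 2 arrays were duplicates.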

Additional observations from a re-analysis of the deposited data

Results flagged for a closer look

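The time difference from 2 h to 24 h differed between Dex and TNF in 1993 genes by the test of the interaction itself, and the 10 with the largest interactions among genes called in both tests are given here. More positive under Dex were Apoc3 with an interaction of 5.13 ± 0.36 (SE, 3.41 under Dex and -1.72 under TNF, limma adjusted p = 3.0e-07), Cyp2e1 with 5.12 (3.06 and -2.05) and Ear3 with 4.70 (2.78 and -1.92). Pygl, the liver-type glycogen phosphorylase, had 3.84 (1.04 and -2.80), and Irf1 had 3.71 (1.73 and -1.97, adjusted p = 1.7e-09). Irf1 measured 10.12, 9.95 and 10.18 in Dex 24 h cells, against 8.25, 8.38 and 8.43 in Dex 2 h cells, and 11.98, 11.87 and 11.86 in TNF 24 h cells, against 13.82, 13.92 and 13.88 in TNF 2 h cells. More negative under Dex were Oasl2 with -6.01 (-1.37 under Dex and 4.64 under TNF), Ccl8 with -5.33 (-0.63 and 4.70), Zbp1 with -5.10 (-1.18 and 3.92), Iigp1 with -5.00 (-2.06 and 2.94) and Psmb8 with -4.52 (-0.82 and 3.70, adjusted p = 5.6e-08). The TNF 24 h means of Cyp2e1 (4.72), Ear3 (4.64) and Pygl (4.52) lay under the detection mark of 5.34. So did the Dex 24 h means of Oasl2 (4.86) and Zbp1 (4.71). These interactions may therefore be understated, and the order among the 10 is not exact. Oasl2, Zbp1, Iigp1 and Psmb8 are interferon-inducible, and Ccl8 is a monocyte chemokine. The call of Ccl8 between Dex times was lost without Dex 2 h replicate 2 (-0.61 with an adjusted p of 0.0516), without Dex 2 h replicate 3 (-0.49 with an adjusted p of 0.072) or without Dex 24 h replicate 3 (-0.53 with an adjusted p of 0.0702). TNF 2 h replicate 2 and TNF 24 h replicate 3 had 3' minus 5' signal differences of 0.736 and 0.683, against 0.0579 to 0.245 on the 6 Dex arrays of these times, and the part of this in the interaction was not tested.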

How the results depend on the processing

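The count of genes called between Dex 24 h and Dex 2 h stayed within 1.5 times of 2032 under no filter, a stricter filter, the mean over probe sets, array centring, cyclic loess, no trend, robust moderation, 20 arrays, only the groups compared (2919) and a replicate block over the 12 arrays (2215). With all 21 arrays, TNF 6 d replicate 2 included, it was 440, and the counts against control were 301 at 2 h, 508 at 24 h and 1009 at 6 d, the interaction count 548, and the courses 74 transient rises, 103 building rises, 34 transient falls and 127 building falls. With a replicate block and only the groups compared, the counts were 3450 between the times, 1940 at 6 d, 840 building rises and 926 building falls. Array weights, whose estimate did not converge fully, gave 4261 between the times, 2033, 5214 and 5711 against control, 4341 interactions, and 598, 1386, 404 and 1225 genes in the courses in the same order. A 2-fold limit left 342 between the times (35.4% higher, against 47.2%), 244, 375 and 628 against control, 816 interactions, and 85, 82, 37 and 133 in the courses. The cause of these shifts was not tested, apart from the 2-fold limit, which admits fewer genes by construction. Leaving out 1 array at a time gave 1440 to 2459 calls between the times, 756 to 1246, 1397 to 2434 and 2813 to 3864 against control, 1478 to 2423 interactions, and 208 to 341, 351 to 649, 130 to 240 and 430 to 714 genes in the courses. Of 109 named genes called, 63 stayed called in every setting with a value, 70 with all 21 arrays and 103 with 20, and none of the 123 reversed as a called value. The count of called members moved by over 1.5 times in 19 of the 21 lists with all 21 arrays. Of 106 further called list members, 36 lost their call without at least 1 single array, all with the same direction. Deviations of same-numbered Dex 24 h and Dex 2 h arrays correlated at 0.306, -0.0007 and 0.226, and those of differently numbered arrays at -0.397 to 0.317. The main fit did not pair arrays by number. Some list means did follow the numbers in control, Dex 2 h, Dex 24 h and Dex 6 d alike. Replicate 2 was highest in each group for the interferon list, and replicate 3 lowest for the glycolysis list. Whether the numbers mark shared cultures is not stated. Levels near the detection mark limit differences of dim genes.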
